A study of Mus musculus with 3 samples.

Results

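The genes of DNA replication and DNA repair were compared between mouse liver and mouse spleen. Members were chosen by gene symbol alone: the Mcm, Orc, Pola, Pold, Pole, Rfc, Rpa, Rrm, Prim, Top, Lig, Msh, Rad, Xrcc and Ercc names and Pcna. Of the 13738 probes that the platform annotation ties to 1 gene symbol, 80 carried such a name, and they stood for 69 genes of 10698. Of these genes, 35 were assigned to replication and 26 to repair. The other 8 had further roles: the 5 topoisomerase genes, Ercc6l of mitosis, Mcm3ap of mRNA export and the Snf2-like gene Rad54l2. A gene was tested only when a probe of it was measured on all 3 arrays, which held for 65 of the 69 members (34 of replication, 23 of repair and the 8 others).

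Each of the 3 two-colour arrays carried a purchased spleen total RNA in Cyanine-3 (green) and a purchased liver total RNA in Cyanine-5 (red), both amplified in 1 round. The labels name no strain, age, sex or number of mice, and no array had the dyes exchanged, so dye bias and tissue difference cannot be told apart. The arrays were treated as repeats of 1 pair of RNAs, so SDs and p-values reflect array-to-array spread only, which may be technical. Values are the deposited log2 ratios, read as liver over spleen, so that a negative value is higher in spleen. This direction is likely rather than stated. It rests on a set of liver genes, with medians of 4.04, 4.62 and 3.80 on arrays 1, 2 and 3, and a set of spleen genes, with medians of -1.12, -1.34 and -1.16. The liver set rested on Ahsg alone on arrays 1 and 3, since Alb and Serpina1b were listed at exactly 0 there and Ttr and Apoa1 on every array. An exact 0 was taken as no measurement.

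DNA replication starts when the origin recognition complex and its partners load the MCM helicase onto DNA. The helicase is then activated, polymerase alpha and primase lay down primers, and polymerases delta and epsilon extend them while held by the sliding clamp PCNA, which RFC loads. RPA coats the exposed single strands and ribonucleotide reductase makes the deoxynucleotides. Most of these genes are transcribed in cycling cells under E2F transcription factors. Repair proteins are needed in resting cells too: they excise damaged bases and bulky lesions, correct mismatches and rejoin broken strands. Adult liver consists mainly of resting hepatocytes, while mouse spleen holds dividing lymphocytes and red cell precursors.

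Most replication genes tested were higher in spleen, and so were 12 of the 23 repair genes. Of the 34 replication genes tested, 27 passed limma's test toward spleen (adjusted p under 0.05, Benjamini-Hochberg over 9803 genes), 1 passed toward liver and 6 did not pass. Of the 23 repair genes, 12 passed toward spleen, 2 toward liver and 9 did not pass. Over all genes tested, 52.8% passed in either direction, 27.4% toward spleen and 25.3% toward liver, against 79.4% of replication genes and 52.2% of repair genes toward spleen. The median log2 ratio was -0.88 for replication, a 1.83-fold difference, and -0.31 for repair, a 1.24-fold difference. It was 0.02 over all genes tested. The repair count fell most when array 2 was left out. Without it, 6 of the 12 repair genes remained past the test, while 24 of the 27 replication genes did. Without array 1 these counts were 8 and 24, and without array 3 they were 11 and 26.

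The gap between the classes had the same sign on each array. The replication median was -0.95, -1.04 and -0.65 on arrays 1, 2 and 3, and the repair median was -0.25, -0.31 and -0.24. The replication median minus the repair median was thus -0.69, -0.73 and -0.42, with a mean of -0.61 ± 0.17 (SD, n = 3 arrays). The difference was narrowest on array 3, which had the smallest spread of ratios over all genes (SD over genes 0.89, against 1.00 and 1.01). At 2-fold or more past the test, 15 of 34 replication genes and 2 of 23 repair genes lay toward spleen. Over all genes tested it was 823 of 9803 (8.40%), so the repair share was near that of all genes. Toward liver at that size there was 1 repair gene, Rad51b, against 9.21% of all genes. The difference between the classes was not put to a test, since genes of a class share arrays and are not replicates.

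**Figure D1:**
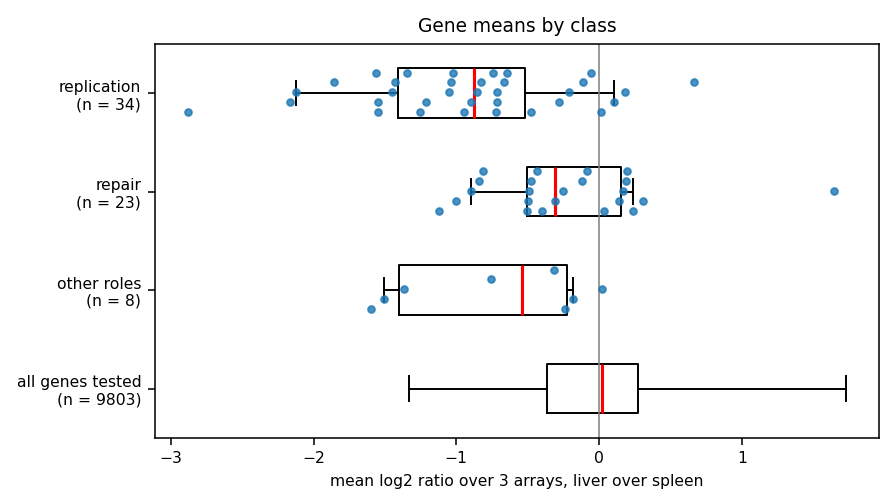
Mean log2 ratio of each gene over 3 arrays (horizontal axis, liver over spleen) for the 34 replication genes, the 23 repair genes, the 8 genes of other roles and all 9803 genes tested. Points are genes, red lines are medians (-0.88, -0.31, -0.54 and 0.02 in this order), boxes span the quartiles and whiskers the 5th to 95th percentile. The replication median lies furthest toward spleen, with Mcm10 apart on the liver side, and Rad51b stands apart on the liver side of repair.

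The 6 subunits of the replicative helicase, Mcm2 to Mcm7, all passed toward spleen. Mcm4 read -2.86, -2.76 and -3.02 on arrays 1, 2 and 3. It was the most spleen-sided member and ranked 26 of 9803 genes from the spleen end, 7.37-fold higher in spleen (limma adjusted p = 1.42e-05). Mcm6 followed with -1.83, -2.15 and -1.58, a mean of -1.85 ± 0.29 and a 3.61-fold difference (adjusted p = 0.000147). Their 3 values lay far from 0 and close to each other. Mcm5 read -1.57, -1.00 and -0.59, a wider spread, with a mean of -1.05 ± 0.49. Mcm2 averaged -0.83 ± 0.16 and Mcm7 -0.72 ± 0.27, both negative on every array. The 6 proteins form 1 ring, yet their ratios ran from -2.88 to -0.48.

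Mcm3 had the smallest of these ratios at -0.48 ± 0.08, and it was the mean of a pair of probes that disagreed. One Mcm3 probe read -1.20, -1.01 and -1.00, and the other read 0.05, 0.17 and 0.13, although the annotation ties both to the same transcript record. Mcm10, a factor that helps to assemble the fork, was the replication gene that passed toward liver, at 0.66 ± 0.16 (adjusted p = 0.00225). Its probes pointed in opposite directions: one read 1.95, 2.27 and 1.53, and the other read -0.94, -0.62 and -0.21. Fitted as separate features, both Mcm10 probes passed the test, with adjusted p = 0.000248 toward liver and adjusted p = 0.0222 toward spleen. The mean of Mcm10 therefore describes neither probe.

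The promoter windows of these genes were searched for the E2F letters TTTCGCGC and TTTGGCGC on both strands; the words can overlap, since one can run into the reverse of the other. RefSeq promoters (GRCm38.p6, 250 bases before to 50 after an annotated start) were matched by symbol for 60 of the 69 members. A match was present for 9 of 32 replication genes (28.1%), 1 of 23 repair genes (4.35%), and 0.929% of the 27025 genes in the table, any annotated start counting. Among the genes tested on the arrays it was 1.43%. The 9 replication genes were Lig1, Mcm3, Mcm5, Mcm6, Mcm7, Orc1, Pola1, Pole2 and Rfc3, and the repair gene was Msh3. These 10 genes all passed toward spleen, with means from -1.85 (Mcm6) to -0.48 (Mcm3). Of the 32 replication genes with a promoter entry, 24 passed toward spleen with or without a match, against 27.4% of all genes tested. Whether a match goes with the ratio was not tested. The other 15 of the 24 replication genes past the test toward spleen that have a promoter entry held no match, among them Pole4 and Rfc4. The Pcna promoter held none either. Mcm4 had no entry. Replication windows were also richer in G and C, with a median of 61.8% against 57.3% for repair and 52.7% for all windows, and the part of base composition in these shares was not tested. CCAAT, the NF-Y letters, was found for 65.6% of replication and 60.9% of repair genes and for 41.1% of all genes. TTTGAA, letters of the cell cycle element CHR, was found for 6.25%, 13.0% and 20.2%. Such a match describes letters in a window and is not a binding site.

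The runs below are shown because their E2F matches, in capitals, lie before the outermost annotated start of the gene; Mcm6, Mcm5 and Rfc3 are replication genes and Msh3 is the repair gene with a match. They lie at chr1:128359706-128359955 (minus strand), chr8:75109259-75109467 (plus strand), chr5:151651209-151651458 (minus strand) and chr13:92355005-92355253 (minus strand) of GRCm38.p6, each printed 5′ to 3′ toward the gene. A run of capitals longer than either word is an overlap of the words on opposite strands.
Mcm6: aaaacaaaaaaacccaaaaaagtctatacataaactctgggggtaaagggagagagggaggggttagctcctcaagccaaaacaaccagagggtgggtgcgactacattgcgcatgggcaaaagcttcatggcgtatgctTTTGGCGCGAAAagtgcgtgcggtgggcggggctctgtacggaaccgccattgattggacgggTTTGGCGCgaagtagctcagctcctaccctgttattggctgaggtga
Mcm5: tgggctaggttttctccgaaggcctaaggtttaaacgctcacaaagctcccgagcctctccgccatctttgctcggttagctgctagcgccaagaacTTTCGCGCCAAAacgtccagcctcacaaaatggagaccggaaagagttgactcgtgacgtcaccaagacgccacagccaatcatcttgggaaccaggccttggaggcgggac
Rfc3: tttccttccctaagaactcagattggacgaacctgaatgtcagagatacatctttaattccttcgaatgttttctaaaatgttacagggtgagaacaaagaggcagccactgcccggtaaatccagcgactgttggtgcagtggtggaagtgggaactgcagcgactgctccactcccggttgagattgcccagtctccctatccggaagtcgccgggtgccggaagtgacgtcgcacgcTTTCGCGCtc
Msh3: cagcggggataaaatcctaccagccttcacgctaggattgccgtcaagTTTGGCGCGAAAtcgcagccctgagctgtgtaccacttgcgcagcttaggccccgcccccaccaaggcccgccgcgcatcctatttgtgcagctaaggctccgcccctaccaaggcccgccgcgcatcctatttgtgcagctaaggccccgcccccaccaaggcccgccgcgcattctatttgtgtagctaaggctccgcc
Mcm6 held 3 matches, Mcm5 and Msh3 held 2 each and Rfc3 held 1. Msh3, with an overlapping pair of matches like that of Mcm5, had a ratio of -0.50 ± 0.22, against -1.05 ± 0.49 for Mcm5.

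Origin recognition genes were split. Orc6 read -1.30, -1.15 and -1.32 and was 2.39-fold higher in spleen (adjusted p = 0.000123). Orc1, the large subunit, read -1.50, -1.39 and -0.22, so array 3 lay apart, and its adjusted p = 0.0205 was lost if array 1 was left out (adjusted p = 0.0789) and likewise for array 2 (adjusted p = 0.104). Orc5 was just past the threshold at -0.28 ± 0.15 (adjusted p = 0.0462) and was lost without any 1 array. Orc4 at -0.21 ± 0.32, Orc3 at 0.10 ± 0.23 and Orc2 at 0.02 ± 0.15 did not pass. Without array 1, Orc4 was at -0.39 and passed (adjusted p = 0.0402). Its probes differed again, with 1 at -0.57 ± 0.02 and the other at 0.16 ± 0.65. The median of the 6 Orc genes was -0.24, against -0.94 for Mcm2 to Mcm7.

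The genes that prime DNA were higher in spleen throughout. Prim1, the catalytic primase subunit, read -1.51, -1.56 and -1.29 and was 2.74-fold higher in spleen (adjusted p = 0.000110). Pola1, the catalytic subunit of polymerase alpha, read -1.40, -1.56 and -0.68. Their partners Prim2 and Pola2 averaged -0.95 ± 0.47 and -0.71 ± 0.33. Prim2 lay further from 0 on array 1 and Pola2 on array 2, and each passed the test (adjusted p = 0.00780 and 0.00786).

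The extending polymerases differed subunit by subunit. Pole4, a small histone-fold subunit of polymerase epsilon, read -2.12, -2.00 and -2.37 and was 4.48-fold higher in spleen (adjusted p = 4.13e-05). Its histone-fold partner Pole3 read -0.30, -0.05 and 0.02 and did not pass. The catalytic subunit Pole averaged -0.67 ± 0.43, with array 3 nearest 0 at -0.24, and lost the test if array 1 (adjusted p = 0.0682) or, in turn, array 2 (adjusted p = 0.0713) was left out. Pole2 averaged -0.74 ± 0.12. Of polymerase delta, the accessory subunit Pold3 read -0.83, -1.15 and -0.71 and passed. The catalytic subunit Pold1 at 0.18 ± 0.19 and the subunit Pold2 at -0.06 ± 0.08 did not (adjusted p = 0.168 and 0.565).

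The clamp, its loader and the strand-coating complex were higher in spleen. Pcna, the sliding clamp, read -2.82 on array 1 and -2.85 on array 3 and was listed at 0 on array 2, so it was not among the genes tested. Fitted on those 2 arrays alone, with probes measured on at least 2 arrays, it was 7.13-fold higher in spleen (limma adjusted p = 8.55e-05). The clamp loader gene Rfc4 read -2.02, -2.47 and -1.88, a 4.36-fold difference. Rfc1, its large subunit, averaged -1.35 ± 0.17, while Rfc3 and Rfc5 were at -0.72 ± 0.27 and -0.65 ± 0.11. Of RPA, Rpa1 read -1.45, -1.64 and -1.56, Rpa3 averaged -1.02 ± 0.05 and Rpa2 -0.85 ± 0.17. All 4 Rfc and all 3 Rpa genes tested passed, and their 3 arrays lay on the spleen side.

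Ribonucleotide reductase and the replicative ligase completed the set. Rrm1, the large subunit, read -1.79, -1.43 and -1.47. Rrm2, the subunit made in S phase, read -1.36, -2.18 and -1.10, with array 2 furthest from 0. Their means were nearly the same, at -1.56 ± 0.20 and -1.55 ± 0.56. Lig1, which joins Okazaki fragments, read -1.53, -1.79 and -0.98 and was 2.70-fold higher in spleen (adjusted p = 0.00106). Among the 28 replication genes past the test, array 3 was the array nearest 0 in 16 and array 2 the furthest in 17.

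**Figure D2:**
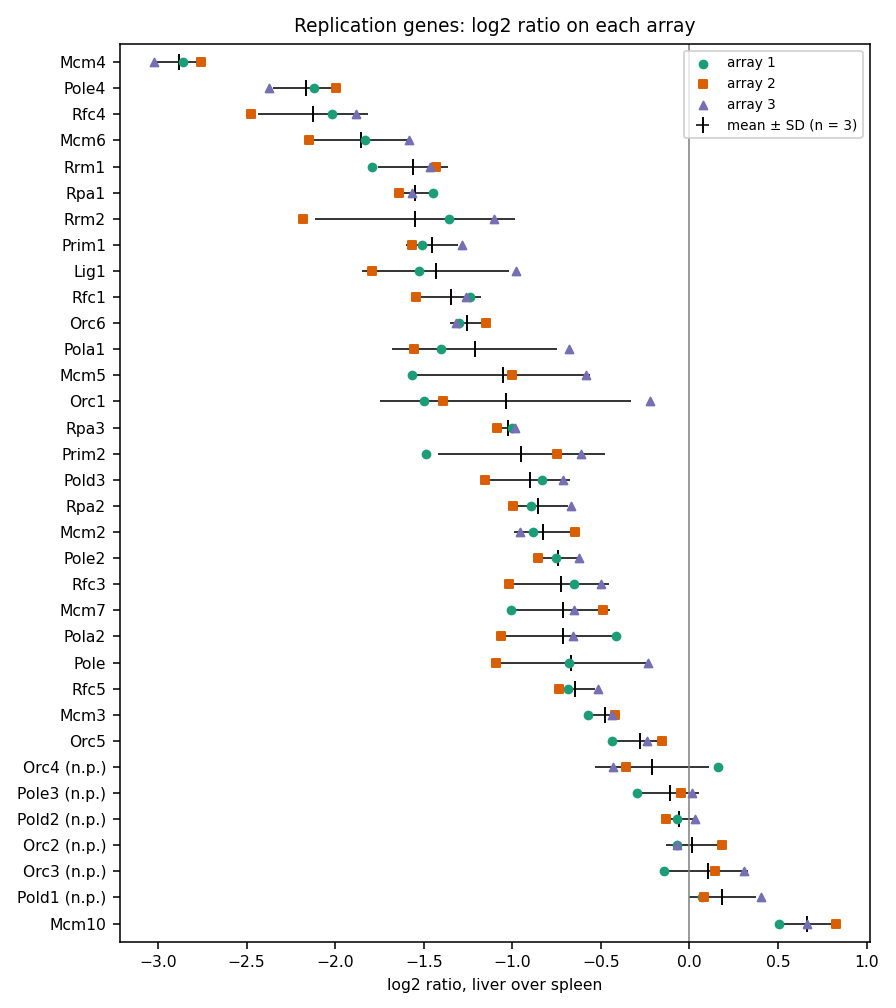
Log2 ratio of liver over spleen (horizontal axis) on arrays 1, 2 and 3 for the 34 replication genes tested, with the mean (tick) and SD over n = 3 arrays (bar); n.p. marks genes that did not pass limma's test. From Mcm4 at -2.88 down to Orc5 at -0.28, 27 genes lie toward spleen, and Mcm10 at 0.66 is the gene past the test toward liver.

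Repair by homologous recombination, which copies an intact sister strand, held members on both sides. Rad51ap1 read -1.16, -1.18 and -1.03 and was 2.18-fold higher in spleen (adjusted p = 0.000168). Rad54l, a motor protein of strand exchange, read -0.98, -1.28 and -0.25, and its adjusted p = 0.0176 was lost if array 1 (adjusted p = 0.0693) or, in turn, array 2 (adjusted p = 0.0766) was left out. Rad52 averaged -0.48 ± 0.23 and lost the test without array 2 (adjusted p = 0.0577). Rad51d, at 0.14 ± 0.13, did not pass. Mcm9, a helicase of this pathway, was listed at 0 on array 1 and read -0.91 and -0.51 on the others.

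Rad51b was the member furthest toward liver. Its tested probe read 1.87, 1.97 and 1.10, a 3.14-fold difference (adjusted p = 0.000971). A second Rad51b probe was listed at 0 on array 1 and read -0.01 and 0.22 on arrays 2 and 3. The liver ratio of Rad51b was thus seen with 1 of its probes. Without array 1, where both probes enter, it was 0.82 and still passed.

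Of the damage sensing and postreplication repair genes Rad17, Rad9a, Rad1, Rad18 and Rad50, 4 passed toward spleen, against 27.4% of all genes tested. Rad17, which loads the checkpoint clamp, read -0.96, -1.14 and -0.91 and was just past the 2-fold limit, 2.01-fold higher in spleen (adjusted p = 0.000346). Of the clamp itself, Rad9a read -0.35, -0.88 and -0.24 (adjusted p = 0.0328, lost without array 1 or array 2, at -0.295 without array 2), and Rad1 at -0.08 ± 0.07 did not pass. The Rad1 probes lay on opposite sides, at -0.41 ± 0.20 and 0.24 ± 0.07. Rad18, a ubiquitin ligase that acts at stalled forks, read -1.15, -0.91 and -0.64. Rad50, of the complex that processes broken ends, stood at -0.44 ± 0.18; its probes were at -0.84 ± 0.10 and -0.03 ± 0.34. It was lost without array 2 (adjusted p = 0.0718).

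Strand-break repair split between its members. Xrcc1, the scaffold of single-strand break repair, read -0.92, -0.83 and -0.68 and passed toward spleen (adjusted p = 0.000764). Its partner ligase Lig3 read 0.33, 0.44 and 0.16 and passed toward liver at 0.31 ± 0.14 (adjusted p = 0.0307). Without array 1 or array 2 Lig3 did not pass (adjusted p = 0.115 and 0.141), and of its probes 1 was at 0.47 ± 0.12 and the other at 0.15 ± 0.16. The Ku genes Xrcc5 and Xrcc6, which bind broken ends for end joining, read 0.34, 0.27 and 0.10 and 0.11, 0.06 and 0.43. Neither passed (adjusted p = 0.0652 and 0.154), and all 6 values lay slightly on the liver side.

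Nucleotide excision repair, which cuts out bulky lesions, had a median of -0.12 over 5 genes tested. Ercc5, a nuclease of this pathway, read -0.40, -0.46 and -0.36 and passed (adjusted p = 0.00701). The nuclease gene Ercc4 and its partner Ercc1 averaged -0.25 ± 0.20 and 0.03 ± 0.21 and did not pass. Without array 3, Ercc4 was at -0.36 and passed (adjusted p = 0.0389). The helicase gene Ercc2 at 0.17 ± 0.27 and Ercc8, of transcription-coupled repair, at -0.12 ± 0.08 did not pass either. Rad23b was listed at 0 on array 1 and read 0.18 and 0.50 on arrays 2 and 3. Ercc6l2, an Snf2-like helicase gene, was at -0.31 ± 0.05 and lost the test without any 1 array. Its probes differed, with 1 at -0.57 ± 0.12 and the other at -0.04 ± 0.21.

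Mismatch recognition was mixed. Msh3 read -0.68, -0.58 and -0.25 and passed (adjusted p = 0.0116), though not if array 1 (adjusted p = 0.0580) or, in turn, array 2 (adjusted p = 0.0655) was left out. Msh6, another mismatch-binding gene, read 0.02, 0.33 and 0.23 and did not pass. Msh5, known for its part in meiosis, averaged -0.50 ± 0.10, with its probes at -0.58 and -0.42. Msh4, its meiotic partner, was listed at 0 on array 1 and read -0.12 and 0.26 on the others.

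**Figure D3:**
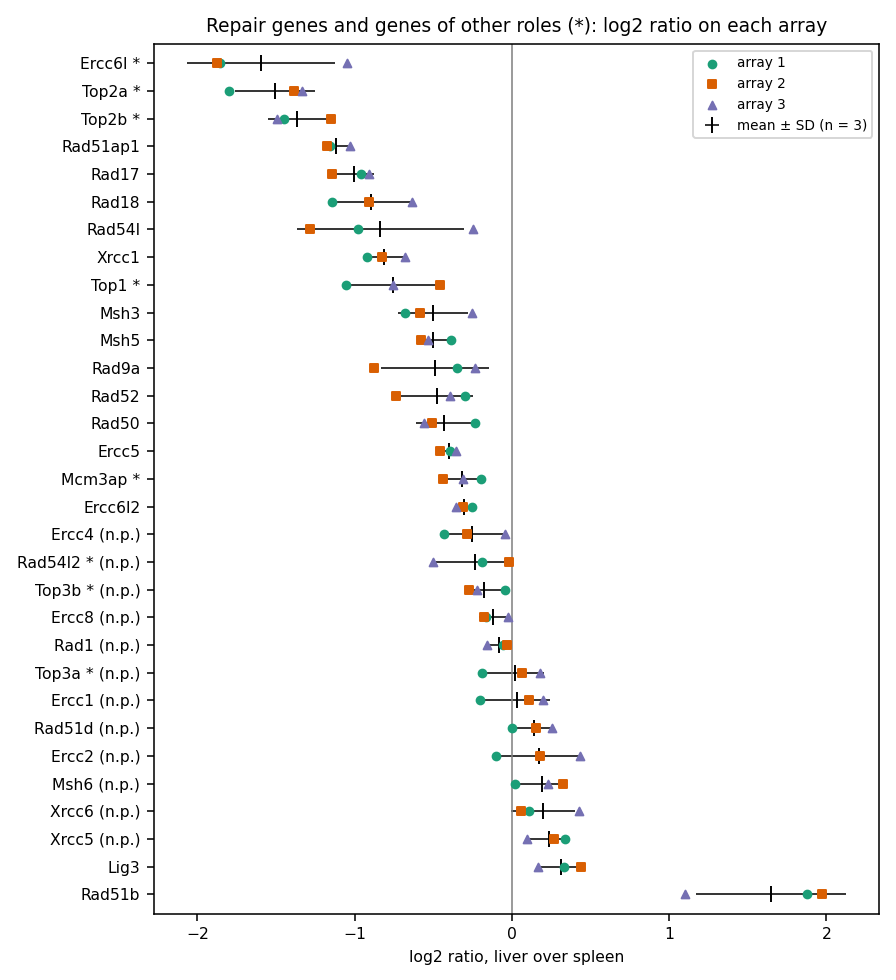
Log2 ratio of liver over spleen (horizontal axis) on arrays 1, 2 and 3 for the 23 repair genes and, marked with an asterisk, the 8 genes of other roles, with the mean (tick) and SD over n = 3 arrays (bar); n.p. marks genes that did not pass limma's test. Rad51ap1 at -1.12 is the repair gene furthest toward spleen, and Rad51b at 1.65 lies furthest on the liver side.

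Among genes of other roles, 5 of 8 passed toward spleen (62.5%), against 27.4% of all genes tested. Top2a, the topoisomerase that is made in dividing cells, read -1.80, -1.39 and -1.33, a 2.84-fold difference (adjusted p = 0.000240). Top2b, its relative of resting cells, read -1.45, -1.15 and -1.50, a 2.58-fold difference, and the ranges of both genes overlapped. Top1 averaged -0.76 ± 0.30, while Top3a at 0.02 ± 0.19 and Top3b at -0.18 ± 0.12 did not pass. Ercc6l, a helicase of mitotic chromosomes, read -1.86, -1.88 and -1.05. Mcm3ap, which binds the Mcm3 protein, was at -0.32 ± 0.12 and lost the test if array 2 (adjusted p = 0.122) or, in turn, array 3 (adjusted p = 0.0676) was left out. Rad54l2 at -0.24 ± 0.25 did not pass.

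Several members had probes that disagreed. Of the 69 members, 11 had 2 probes in the table, and for 10 of these both probes were measured on all arrays. In 5 of the 10 the probe means lay on opposite sides of 0: Mcm10, Mcm3, Orc4, Rad1 and Ercc8. The gap between probe means was 2.50 for Mcm10, 1.19 for Mcm3, 0.82 for Rad50 and 0.73 for Orc4, well above the median SD of a gene over arrays (0.15). It was smallest for Msh5, at 0.16. A gene with 1 probe offers no such comparison, and this holds for 58 of the members.

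**Figure D4:**
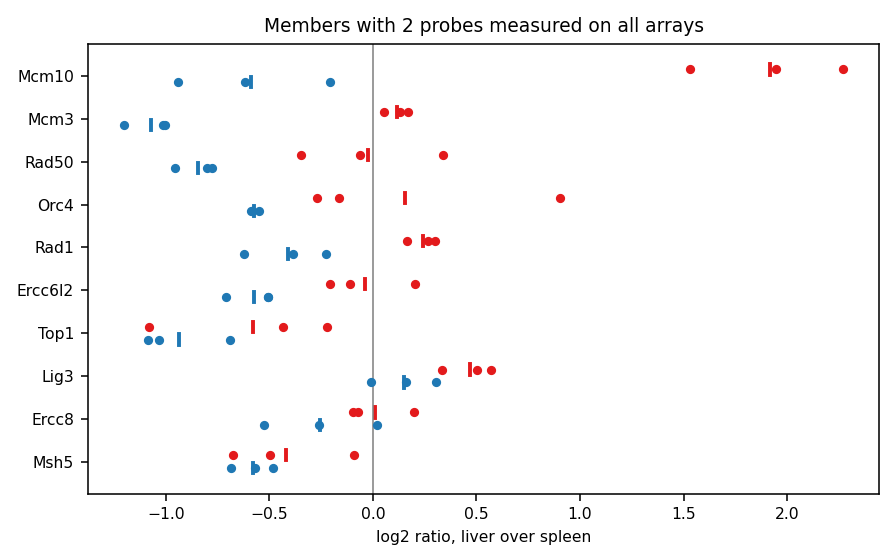
Log2 ratio of liver over spleen (horizontal axis) for the 10 members with 2 probes measured on all arrays, 1 gene per line. Points are arrays and vertical ticks are probe means, with the lower probe in blue and the higher in red; the gap is widest for Mcm10 (-0.59 and 1.92) and the probes of Msh5 lie closest.

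Other genes of the same pathways, taken from lists named by function and not from the symbol rule, were read from the same fit. Over all genes tested, 27.4% passed toward spleen and 25.3% toward liver. Of 14 genes of replication licensing and the fork, 10 passed toward spleen and 2 toward liver, with a median of -0.62. Cdc7, the kinase that fires origins, averaged -1.86 ± 0.38, Tipin, of the fork protection complex, -1.63 ± 0.29, and the licensing inhibitor geminin (Gmnn) -1.44 ± 0.32. The Tipin probes differed in size, with -0.99, -1.27 and -0.23 against -2.55, -2.38 and -2.35. Timeless, the partner of Tipin, went the other way at 0.41 ± 0.19, and lost the test without array 1 (adjusted p = 0.0826). All 7 genes of chromatin assembly and maintenance at forks passed toward spleen, with a median of -1.07. Hells, Asf1a and Nasp stood at -1.42 ± 0.03, -1.35 ± 0.07 and -1.10 ± 0.14. Of 8 genes of nucleotide supply, 3 passed toward spleen and 3 toward liver (37.5% each way), near the shares over all genes. Samhd1, which degrades deoxynucleotides, was at -2.08 ± 0.10, the dUTP-hydrolysing enzyme Dut at -1.68 ± 0.06, and the kinase Cmpk1 at 0.69 ± 0.19. Thymidylate synthase (Tyms) was at -0.58 ± 0.11, from a probe at -0.98, -1.41 and -0.96 and another at 0.05, 0.05 and -0.23. Across the 3 lists, 20 of 29 genes (69%) passed toward spleen and 5 (17.2%) toward liver, with a median of -0.65.

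The repair partners had a median nearer 0. Across the 7 lists, 25 of 52 genes (48.1%) passed toward spleen and 7 (13.5%) toward liver, with a median of -0.30. The shares over all genes tested were 27.4% and 25.3%. In homologous recombination and the Fanconi pathway 5 of 11 passed toward spleen and 1 toward liver, among them Blm at -1.19 ± 0.12, Mre11a at -1.14 ± 0.37 on its probe measured on all arrays and Brca1 at -1.04 ± 0.26, with Fancc at 0.33 ± 0.08 toward liver. Another Mre11a probe read 0.48 and 0.44 on arrays 1 and 2 and was listed at 0 on array 3. Mre11a did not pass without array 3 (-0.33, adjusted p = 0.0936), with that probe averaged in (-0.61, adjusted p = 0.0538) or with an exact 0 kept as a value (-0.41, adjusted p = 0.0584). Fancc did not pass without array 1 or array 2. In base excision and strand-break repair 6 of 13 passed toward spleen and 2 toward liver. Parp2 stood at -0.84 ± 0.11, Mpg at -0.70 ± 0.40, Neil1 at -0.54 ± 0.13 and Mgmt, which removes alkyl groups, at 0.44 ± 0.17. In nucleotide excision repair 3 of 9 passed each way (33.3%), near the shares over all genes. The damage-binding gene Ddb2 was at -1.70 ± 0.07, its partner Ddb1 at 0.38 ± 0.13, Cetn2 at -0.54 ± 0.13 and the TFIIH gene Gtf2h4 at 0.43 ± 0.09. The Cetn2 probes differed, with -1.00, -1.33 and -1.06 against 0.23, 0.14 and -0.20. In damage signalling 5 of 7 passed toward spleen and 1 toward liver. The histone gene H2ax was at -2.14 ± 0.04, the kinase genes Atr and Atm at -1.46 ± 0.23 and -1.05 ± 0.23, and the p53 target Cdkn1a at 0.91 ± 0.06, from a probe at 1.57, 1.58 and 1.19 and another at 0.38, 0.21 and 0.52. Of 6 translesion polymerase genes 4 passed toward spleen, led by Poli at -0.92 ± 0.11. The end-joining kinase Prkdc was at -0.92 ± 0.34, 1 of 4 genes of that list past the test, and the exonuclease Exo1 of mismatch repair was at -1.15 ± 0.31, 1 of 2.

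Markers of dividing cells and of blood cells moved with these genes. For comparison, 27.4% of all genes tested passed toward spleen and 25.3% toward liver. Of 13 measured markers of dividing cells, 10 passed toward spleen and their median was -1.10, led by Ccna2 at -2.80 ± 0.22 and Mki67 at -2.60 ± 0.27, while Aurka, Aurkb and Nusap1 did not pass. The Aurkb probes had opposite signs on every array (-0.91, -0.60 and -1.15 against 0.73, 0.10 and 0.32), and so did those of Aurka (-0.57, -0.65 and -0.22 against 0.03, 0.12 and 0.30). Of the markers that passed, Ccnb2 and Cdc20 also had probes of opposite sign on every array. The Ccnb2 probes read -1.66, -2.17 and -1.63 against 0.05, 0.02 and 0.12. The Cdc20 probes read -2.23, -1.98 and -1.27 against 0.11, 0.19 and 0.29. All 6 B-cell markers, 5 of 6 T-cell markers and all 6 erythroid markers passed toward spleen, with medians of -2.08, -1.97 and -1.98, and Cd3e at 0.13 ± 0.09 did not. The 4 hepatocyte markers measured on all arrays lay between 3.76 and 4.97 toward liver. Cd79b, Cd22, Cd3e and Ahsg also belong to the sets from which the direction of the ratio was read. Of 3 Kupffer cell markers, 2 passed toward liver and Marco toward spleen at -2.05 ± 0.26. Clec4f, which passed toward liver, had a probe at 3.50, 3.19 and 2.87 and another at 0.001, 0.17 and -0.02. In whole tissue, fewer cells of a type and less RNA per cell cannot be told apart, and the part of these cell types in the ratios above was not tested.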

How the data were processed

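Each array gave 1 deposited log2 ratio of its channels for 16281 probes. How the authors corrected background, normalized dyes or filtered is not given in the sources used here. The log base was taken from the values, whose limit of 6.64 is the log2 of 100. An exact 0 (1414, 1098 and 1137 probes on arrays 1, 2 and 3) was treated as no measurement. No depth applies to arrays, and their number limits the precision.

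Probes were named from the platform annotation; the Entrez number of 13694 of the 13738 probes with 1 symbol was found in RefSeq, and no symbol changed. Another 52 probes had several symbols and 2491 none, and these were left out. Probes measured on all 3 arrays were averaged per gene, which gave 9803 genes. Each gene was fitted in R 4.3.3 by limma 3.58.1 (ratio against 0, intercept-only fit, eBayes, two-sided, Benjamini-Hochberg adjustment, threshold 0.05). Roles and gene lists came from textbook knowledge. Members, lists and the choice of genes to name were made with earlier results of these data known; every member and marker gene could be named, and from each other list the 3 largest genes past the test with the largest opposite one. Tyms, Ddb1, Rag1 and Rag2 were named after their values were seen. Alternatives were centring, scaling, exact 0 kept, probe handling, robust moderation, classes by prefix, a 2-fold limit and leaving out each array.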

Additional observations from a re-analysis of the deposited data

How the results depend on the processing

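Centring arrays, scaling them to one spread and robust moderation kept all 27 replication and 12 repair calls toward spleen. With exact 0 kept as a value, 24 and 10 of these calls remained. Taken from means over arrays and not array by array, the median of replication minus that of repair was -0.57 in the main fit. This difference stayed between -0.62 and -0.53 under every alternative run. With genes of 1 measured probe only, the counts toward liver were 0 for replication and 1 for repair, the repair median was -0.40 and 13 replication partners passed toward spleen. This setting left out every gene with more measured probes, Mcm10 and Lig3 among them. It held 31 replication and 17 repair members and fewer partners, so these counts are not calls lost on the same genes. With each probe as a feature the repair median was -0.26. Leaving out 1 array in turn gave a repair median of -0.36 to -0.25, 6 to 12 repair genes toward spleen and 1 to 2 toward liver, 4 to 6 repair partners and 3 to 4 replication partners toward liver. At 2-fold or more, 15 replication, 2 repair and 3 other members passed toward spleen, and 0 replication and 1 repair member toward liver. For the partners these were 11 and 8 toward spleen and 0 for both toward liver, and over all genes 823 toward spleen and 903 toward liver. Signs changed for genes that did not pass: Ercc1 (-0.048 to 0.15 over the arrays left out), Orc2 (-0.0066 centred, -0.068 to 0.059 over the arrays left out), Top3a (-0.0054 centred, -0.063 to 0.12 over the arrays left out), all near 0, and Nusap1, at -0.42 with all arrays (-0.80 to 0.20 over the arrays left out, positive without array 2). The cause was not tested. No paired analysis was possible because there is 1 group of arrays, each of which already sets liver against spleen.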

Other observations

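Genes that cut and join antigen receptor genes, a lymphocyte use of DNA repair, were also read from the fit. Rag1 averaged 0.03 ± 0.03 and Rag2 0.03 ± 0.07, with neither past limma's test (adjusted p = 0.750 and 0.796). Dntt, which adds bases at the joints and is known from lymphocyte precursors, was at 0.43 ± 0.11 and passed toward liver (adjusted p = 0.00796). It read 0.44, 0.31 and 0.52 on the 3 arrays. Over all genes tested, 25.3% passed toward liver. Only ratios were read, so the signal of these genes in either tissue is not known here.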
